A study of Homo sapiens with 26 samples.

Results

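The sites described here are the FOXA1nhaa peaks that no other protein of the study shared. They were chosen as the rows of the FOXA1nhaa peak list that overlapped, by 1 bp or more, no row of the FOXA1, FOXA1rraa, FOXA1dbd or HNF4A list. There were 40641 of them among 105591 FOXA1nhaa peaks, or 38.5% (38.2 to 38.8). They are called FOXA1nhaa-alone peaks. The choice used the lists themselves, so their number and their lack of overlap are descriptions and not findings. Another 61634 FOXA1nhaa peaks overlapped a FOXA1 peak and serve as the main comparison, 2663 overlapped a FOXA1rraa peak outside FOXA1, and 653 overlapped FOXA1dbd or HNF4A peaks only.

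The study mapped HALO-tagged proteins by chromatin immunoprecipitation and sequencing (ChIP-seq) in BJ fibroblasts, an established cell line from human foreskin. Each protein was expressed ectopically for 48 hours and was precipitated with an antibody to the HALO tag (HALO(Promega G9281)). The groups used are FOXA1, its variants FOXA1dbd, FOXA1nhaa and FOXA1rraa, and HNF4A, each with 2 ChIP and 2 input samples in the labels but 1 peak list. The samples of HALO-tagged histone H2B were not used here. All groups share the cell line, the tag, the antibody and the time. The labels do not spell out the variant codes. No control with the tag alone and no untransduced cells were used here. Because each construct has 1 list, there is no replicate error and no test. Shares carry 95% Wilson intervals and differences of shares carry Newcombe intervals, which reflect only the number of peaks counted and not the spread between cultures. How many reads lie behind each list is unknown.

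FOXA1 is a forkhead transcription factor. Its winged-helix domain places a recognition helix in the major groove of DNA and makes further contacts with the DNA backbone, and FOXA proteins are known as pioneer factors that can reach sites in compacted chromatin during liver and other endoderm development. A FOXA1 variant called NHAA has been described in earlier work as carrying alanines in place of an asparagine and a histidine of the recognition helix, residues that contact bases. Whether the construct labelled FOXA1nhaa is that variant is not stated in the labels. BJ cells are fibroblasts, a cell type in which the AP-1 and TEAD families of transcription factors occupy many enhancers.

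The strongest FOXA1nhaa-alone peaks are shown first, so that the sequence under them can be read. None of the 10 highest ranked holds a forkhead core or an AP-1 core, which is near the 84.3% of all FOXA1nhaa-alone peaks that hold neither, and the window of rank 2 holds the forkhead variant TGTTTGC. Each line gives the central 200 bp around the summit, on the plus strand of GRCh37 (the hg19 coordinates of the lists). Capitals mark matches to any of the 10 words of 7 bases that were most over-represented in FOXA1nhaa-alone peaks against the genome, which are described with the words below. The windows are chr13:109406423-109406622 in an intron of MYO16, chr4:73244183-73244382 in an intron of ADAMTS3, chr12:40651968-40652167 in an intron of LRRK2 and chr1:48992269-48992468 between genes. Their ranks by −log10 q-value are 1, 3, 5 and 7, and the LRRK2 window has no capitals because it holds none of the words.
MYO16 site: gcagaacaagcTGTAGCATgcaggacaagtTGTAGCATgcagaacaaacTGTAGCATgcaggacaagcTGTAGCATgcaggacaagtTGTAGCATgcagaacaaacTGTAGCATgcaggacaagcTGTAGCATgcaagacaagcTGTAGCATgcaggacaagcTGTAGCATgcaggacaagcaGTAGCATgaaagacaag
ADAMTS3 site: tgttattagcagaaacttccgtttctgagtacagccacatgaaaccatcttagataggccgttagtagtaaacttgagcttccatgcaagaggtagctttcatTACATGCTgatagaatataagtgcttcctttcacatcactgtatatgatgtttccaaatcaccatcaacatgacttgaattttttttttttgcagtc
LRRK2 site: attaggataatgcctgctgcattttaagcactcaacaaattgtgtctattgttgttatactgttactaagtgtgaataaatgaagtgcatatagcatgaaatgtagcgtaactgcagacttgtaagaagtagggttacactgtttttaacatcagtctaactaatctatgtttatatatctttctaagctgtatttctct
chromosome 1 site: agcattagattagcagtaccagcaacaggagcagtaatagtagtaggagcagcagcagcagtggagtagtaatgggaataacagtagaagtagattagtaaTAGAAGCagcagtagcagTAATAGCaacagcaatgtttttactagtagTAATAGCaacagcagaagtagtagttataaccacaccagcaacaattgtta

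The next windows are 2 of the 3 highest-ranked FOXA1nhaa-alone peaks with a forkhead core within 50 bp of the summit, shown to let the core be read in its setting. Capitals mark the core, TGTTTAC or TATTTAC on either strand. The windows are chr7:15055911-15056110 between genes with DGKB as the nearest protein-coding start and chr5:13931832-13932031 inside DNAH5 with its summit 308 bp from an annotated start.
DGKB-side site: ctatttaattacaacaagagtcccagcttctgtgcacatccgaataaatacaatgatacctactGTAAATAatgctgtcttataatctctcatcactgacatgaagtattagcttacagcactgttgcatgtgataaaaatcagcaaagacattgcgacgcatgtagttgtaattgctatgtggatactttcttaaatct
DNAH5 site: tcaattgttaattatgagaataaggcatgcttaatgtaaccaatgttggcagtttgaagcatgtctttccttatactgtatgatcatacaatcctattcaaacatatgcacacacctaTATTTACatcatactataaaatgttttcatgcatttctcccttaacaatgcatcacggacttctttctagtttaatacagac

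The last windows are the highest-ranked FOXA1nhaa-alone peaks with an AP-1 core (TGAGTCA or TGACTCA, which are each other's reverse complement) within 50 bp of the summit, in capitals. They are chr15:67064764-67064963 in an intron of SMAD6 and chr15:95662453-95662652 in introns of long non-coding RNA genes.
SMAD6 site: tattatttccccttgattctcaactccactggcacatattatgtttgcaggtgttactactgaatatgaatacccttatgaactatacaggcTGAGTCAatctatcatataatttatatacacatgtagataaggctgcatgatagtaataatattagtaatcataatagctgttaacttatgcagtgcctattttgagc
chromosome 15 lncRNA site: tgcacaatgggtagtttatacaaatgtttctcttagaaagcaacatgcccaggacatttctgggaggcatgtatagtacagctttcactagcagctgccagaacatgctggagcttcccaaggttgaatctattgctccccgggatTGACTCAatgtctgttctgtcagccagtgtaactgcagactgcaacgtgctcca

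The values of single peaks are the authors' own. The MYO16 peak, at chr13:109406228-109406889 in the gene of an unconventional myosin, had the highest −log10 q-value of the FOXA1nhaa-alone peaks, 87.0, and a fold enrichment of 26.6. The second peak, chr1:144012790-144013282 between genes, had a −log10 q-value of 49.9 and a fold enrichment of 11.7. The tenth, in an intron of SLF2, had a −log10 q-value of 44.7 and a fold enrichment of 15.5. The MYO16 peak therefore stood well apart from the other 9, which lay close together. Those between them were in introns of ADAMTS3 (a secreted metalloprotease, −log10 q-value 49.2), LRRK2 (a large kinase known from Parkinson disease, 48.9), FARS2 (a mitochondrial tRNA synthetase, 48.2), TRIO (a guanine nucleotide exchange factor, 46.7) and PDE4DIP (a centrosome and Golgi protein, 44.95), in an intron of a long non-coding RNA gene on chromosome 9 (49.1), and between genes at chr1:48992021-48992622 (46.9).

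The MYO16 window is a tandem array: at an offset of 19 bases at least 80% of its bases equalled themselves, and the unit with TGTAGCAT recurs across the window. None of the other 9 windows met that criterion at any offset from 2 to 60 bases. The chromosome 1 window printed above is rich in agc and agt triplets without an exact period. Windows of the tandem kind were rare, with 24 of the FOXA1nhaa-alone peaks (0.0591%, 0.0397 to 0.0879), 0.110% (0.0870 to 0.140) of the peaks shared with FOXA1, and 0.151% (0.132 to 0.173) of every 100th tile of the genome. The peak of the array is thus an exception among FOXA1nhaa-alone peaks. The gap from the MYO16 peak to the nearest FOXA1 peak was 4649 bp, that of the ADAMTS3 peak 1243 bp, that of the FARS2 peak 109230 bp and that of the SLF2 peak 194 bp.

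The forkhead and AP-1 examples ranked lower. The peak beside DGKB had a −log10 q-value of 40.5 and a fold enrichment of 15.5, and the DNAH5 peak, at the gene of a ciliary dynein heavy chain, 39.2 and 15.2. The DNAH5 peak was also the highest-ranked one within 1000 bp of a protein-coding start. The AP-1 examples had −log10 q-values of 30.6 for SMAD6, an inhibitor of BMP signalling, and 30.4 for the lncRNA site.

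As a whole, FOXA1nhaa-alone peaks were somewhat weaker and narrower than those shared with FOXA1. Their −log10 q-value ran from 2.02 through a median of 8.24 to 87.0, compared with a median of 9.70 and a highest value of 141 for the shared peaks. The median fold enrichment was 5.57 and 5.94. The median width was 315 bp and 398 bp, and a wider peak overlaps another list more easily. The distributions overlapped broadly, since the upper quartile of the −log10 q-value of FOXA1nhaa-alone peaks, 11.3, lay above the median of the shared peaks.

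The peak names of the FOXA1nhaa list carry 4 prefixes whose meaning the labels do not give. The prefix FOXA1_3 held 98.4% of the FOXA1nhaa-alone peaks, and 39.8% (39.5 to 40.1) of the rows with it were FOXA1nhaa-alone. The share was 57.3% (54.2 to 60.3) of the 1004 rows named FOXA1_4 and 1.86% (1.496 to 2.320) of the 4184 rows named FOXA1_5. Peaks with the prefix FOXA1_4 were narrow, with a median of 98 bp. The FOXA1_5 rows were therefore almost all shared with another list.

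**Figure D1:**
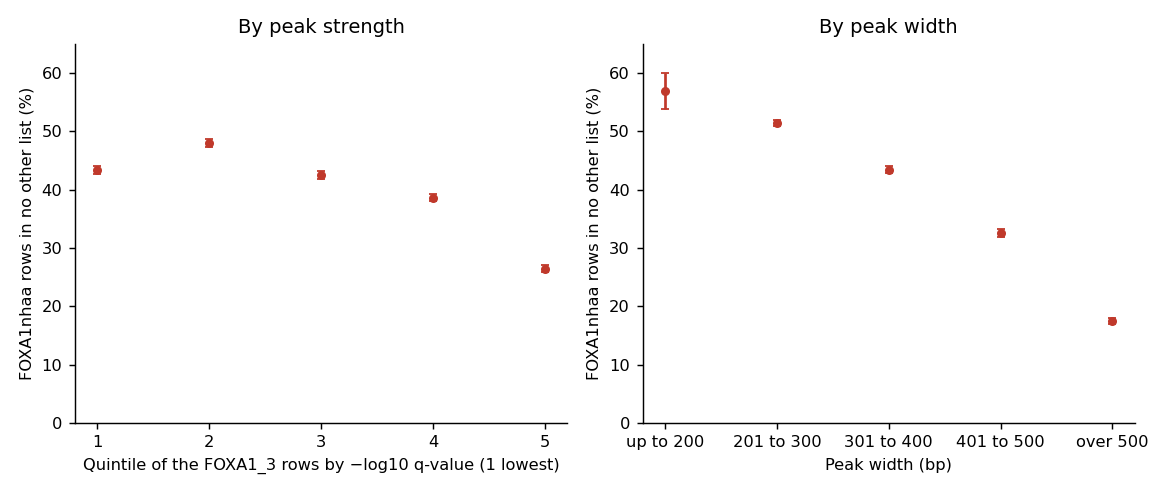
Share of FOXA1nhaa rows that overlap no other list (y axis, %), by quintile of the −log10 q-value among FOXA1_3 rows (left) and by peak width in bp for all rows (right). Points are shares with 95% Wilson intervals; the share was 48.1% in the second quintile and 26.5% in the strongest, and it fell from 56.9% of the narrowest to 17.5% of the widest peaks.

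Within the FOXA1_3 rows the share in no other list was 43.4% (42.7 to 44.1) in the weakest quintile by −log10 q-value, 48.1% (47.4 to 48.8) in the second, 42.6% and 38.6% in the next, and 26.5% (25.9 to 27.1) in the strongest. FOXA1nhaa-alone peaks thus occurred at every strength, including 5314 peaks in the strongest quintile. By width the share was 56.9% (54 to 60) of peaks up to 200 bp, 51.5% of those over 200 and up to 300 bp, 43.5% up to 400 bp, 32.6% up to 500 bp, and 17.5% (16.98 to 17.94) of those over 500 bp, an order that the plot of shares by strength and width shows. At the edge of the rule, 35 FOXA1nhaa-alone peaks lay within 10 bp of a peak of another list, with a median −log10 q-value of 7.31. The 172 FOXA1nhaa peaks left out because of an overlap of at most 10 bp had a median of 7.56.

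The FOXA1rraa list entered the rule in a particular way. Of the 105591 FOXA1nhaa rows, 41253 overlapped a FOXA1rraa row, and all 41253 had the same chromosome, start and end as a row of that list. Overlap with FOXA1rraa was therefore identity of rows, and a FOXA1nhaa-alone peak is, with respect to that list, a row that does not recur in it.

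A forkhead core occurred in the central 200 bp of 10.8% (10.46 to 11.06) of FOXA1nhaa-alone peaks, or 4371 of them. It occurred in 7.29% of all 14292991 tiles of 200 bp of the genome, in 15.3% (14.97 to 15.54) of the FOXA1nhaa peaks shared with FOXA1, and in 20.1% (18.6 to 21.6) of those shared with FOXA1rraa outside FOXA1. FOXA1 peaks that no variant overlapped, which give no summit and were taken at their midpoint, had it in 17.05% (16.76 to 17.34). FOXA1nhaa-alone peaks thus lay between the genome and these 3 classes of peak, with a difference from the shared peaks of -4.50 points (-4.91 to -4.08), an interval that leaves out 0. Both forms of the core did the same. TGTTTAC was in 4.92% of FOXA1nhaa-alone peaks, 6.85% of shared peaks and 3.11% of tiles, and TATTTAC was in 6.17%, 9.14% and 4.37%.

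Letters of the same composition were counted for comparison. The reversed letters, CATTTGT or CATTTAT on either strand, were in 15.4% (15.02 to 15.72) of FOXA1nhaa-alone peaks, 17.8% of shared peaks and 12.3% of tiles. The ratio to the tiles was 1.47 for the forkhead core and 1.25 for its reversed letters in FOXA1nhaa-alone peaks, against 2.09 and 1.44 in shared peaks. The gap between a core and its reversed letters was therefore smaller in FOXA1nhaa-alone peaks. The related letters TGTTTGC or TATTTGC, another form that forkhead proteins are known to bind, were in 10.55% (10.25 to 10.85) of FOXA1nhaa-alone peaks, 13.1% of shared peaks and 7.04% of tiles.

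**Figure D2:**
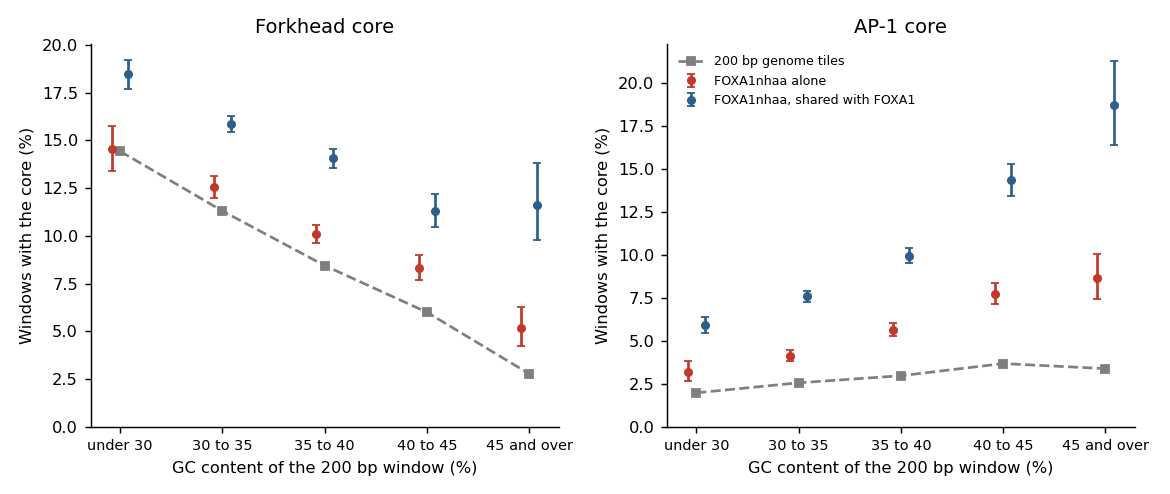
Share of 200 bp windows with a forkhead core (left) or an AP-1 core (right) on the y axis (%), by GC content of the window (%). Points with 95% Wilson intervals are FOXA1nhaa peaks, grey squares are all genome tiles; under 30% GC the forkhead share of FOXA1nhaa-alone peaks (14.5%) is close to that of the tiles (14.4%), while the AP-1 share is above the tiles in every class.

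FOXA1nhaa-alone peaks had a median GC content of 35.5%, compared with 34% in shared peaks and 40% in genome tiles, and the comparison was repeated within classes of GC. Below 30% GC the forkhead core was in 14.5% (13.4 to 15.8) of FOXA1nhaa-alone peaks and 14.4% of tiles, with 18.5% (17.7 to 19.2) in shared peaks. From 30 to 35% the shares were 12.5% (12.0 to 13.1), 11.3% and 15.9%. At 45% and over they were 5.16% (4.23 to 6.27), 2.77% and 11.6% (9.77 to 13.8). FOXA1nhaa-alone peaks were thus at the level of the genome at low GC, above it in the other classes, and below the shared peaks in every class, as the plot of core shares by GC shows. The reversed letters from 30 to 35% GC were in 18.4% (17.8 to 19.1) of FOXA1nhaa-alone peaks and 19.01% of tiles. At 45% and over they were in 6.32% (5.29 to 7.54) and 4.39%, so they too were above the tiles there. That class has no upper limit and is not matched in GC. At 50% GC or more were 18.1% of all tiles but 0.620% of FOXA1nhaa-alone peaks.

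The AP-1 core, bound by FOS and JUN family dimers, was in 5.42% (5.20 to 5.64) of FOXA1nhaa-alone peaks, 8.81% (8.59 to 9.04) of shared peaks and 3.05% of tiles. The difference between the peak classes was -3.40 points (-3.71 to -3.08, FOXA1nhaa-alone minus shared). The reversed letters, ACTGAGT or ACTCAGT, were in 4.13% of FOXA1nhaa-alone peaks, 4.22% of shared peaks and 2.73% of tiles, so that the classes of peak differed in the AP-1 core but by less than counting error in its reversed letters (difference -0.09 points, -0.34 to 0.16). The ratio to the tiles was 1.77 for the AP-1 core and 1.51 for its reversed letters in FOXA1nhaa-alone peaks, against 2.89 and 1.54 in shared peaks. Within GC classes the AP-1 share of FOXA1nhaa-alone peaks was above that of the tiles throughout. It went from 3.20% (2.66 to 3.84) against 1.97% below 30% GC to 8.65% (7.44 to 10.0) against 3.38% at 45% and over. The class of 45% and over has no upper limit, so its peaks and tiles are not matched in GC. The reversed AP-1 letters were not counted by GC class.

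Most FOXA1nhaa-alone peaks held neither core. The share with neither was 84.3% (84.0 to 84.7), compared with 77.1% (76.8 to 77.5) of shared peaks. A forkhead core without an AP-1 core was in 10.2%, an AP-1 core alone in 4.91%, and both in 0.512%, or 208 peaks. Strength hardly separated these groups: the median −log10 q-value was 8.48 with a forkhead core only, 7.77 with an AP-1 core only, 7.98 with both and 8.24 with neither.

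In FOXA1nhaa-alone peaks the cores followed peak strength in opposite ways. In shared peaks both cores were lower in the strongest quintile than in the weakest. In FOXA1_3 rows the forkhead share of FOXA1nhaa-alone peaks was 10.0% (9.42 to 10.7) in the weakest quintile and 11.7% (10.9 to 12.6) in the strongest, whereas in shared peaks it was 15.4% (14.7 to 16.1) and 14.2% (13.6 to 14.8). The 2 classes were therefore nearest to each other among the strongest peaks, and FOXA1nhaa-alone peaks were still lower there. The AP-1 share of FOXA1nhaa-alone peaks was 6.08% (5.60 to 6.60) in the weakest quintile and 4.70% (4.17 to 5.31) in the strongest, against 8.98% and 7.86% in shared peaks.

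**Figure D3:**
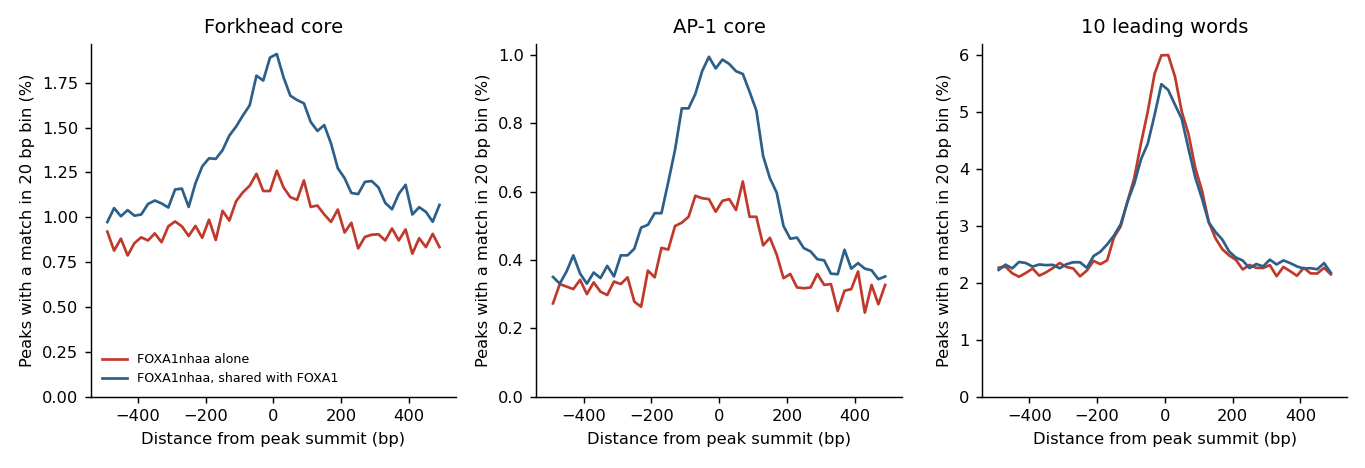
Share of peaks with a match in each 20 bp bin (y axis, %), by distance from the summit in bp, for the forkhead core, the AP-1 core and the 10 leading words of 7 bases. Red lines are FOXA1nhaa-alone peaks and blue lines are peaks shared with FOXA1. All rise at the summit, the cores more in shared peaks (forkhead 1.70 times the flanks against 1.35). The words were picked from summit windows of FOXA1nhaa-alone peaks, which favours their rise there (2.51 times against 2.19 in shared peaks).

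Both cores were concentrated at the summits of FOXA1nhaa-alone peaks, though less than in shared peaks. In bins of 20 bp, the mean forkhead share within 60 bp of the summit was 1.18% in FOXA1nhaa-alone peaks and 0.876% at 300 to 500 bp, a ratio of 1.35, compared with 1.70 in shared peaks. For AP-1 the ratio was 1.82, compared with 2.64. The reversed forkhead letters had ratios of 1.15 and 1.26, below those of the core in both classes. The profiles around the summit show the same order along the whole window.

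Other factor cores were described with the same windows. The TEAD core CATTCC was in 12.7% (12.4 to 13.1) of FOXA1nhaa-alone peaks, 12.8% of shared peaks and 10.6% of tiles, with a difference between the classes of -0.08 points (-0.50 to 0.34). Within GC classes the TEAD share of FOXA1nhaa-alone peaks was 8.11% (7.25 to 9.07) against 8.20% of shared peaks below 30% GC, 10.9% (10.4 to 11.4) against 11.7% (11.4 to 12.1) from 30 to 35%, and 13.4% (12.9 to 13.99) against 15.1% (14.6 to 15.6) from 35 to 40%. From 40 to 45% it was 15.7% (14.9 to 16.6) against 17.3% (16.3 to 18.3). At 45% and over it was 18.5% (16.8 to 20.4) against 20.7% (18.3 to 23.4). FOXA1nhaa-alone peaks thus had the lower value in every class although the pooled shares were close. The intervals were apart only from 35 to 40%. The C/EBP letters TTGCNNAA were in 14.5% of FOXA1nhaa-alone peaks, 15.2% of shared peaks and 10.7% of tiles, with a difference of -0.72 points (-1.17 to -0.28). The RUNX core AACCACA was in 4.13% (3.94 to 4.32), 4.94% and 3.84%. FOXA1nhaa-alone peaks were thus near the genome for RUNX. The letters CAAAGTCCA of HNF4 were in 0.150% (0.117 to 0.193) of FOXA1nhaa-alone peaks, 0.219% of shared peaks and 0.253% of tiles. A CTCF core was in 0.180%, 0.154% and 0.453%, and the full palindromic NFI site was in 2 FOXA1nhaa-alone peaks and 0.0124% of tiles. Runs of 10 A were in 1.62% (1.503 to 1.749) of FOXA1nhaa-alone peaks, 1.83% of shared peaks and 6.59% of tiles. An alternating TG repeat of 10 bases was in 0.519% (0.454 to 0.594) of FOXA1nhaa-alone peaks, below both the tiles (1.42%) and the shared peaks (1.74%). All of these were searched on both strands, and no match says only that the letters are not in the window.

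The words of 7 bases most over-represented in FOXA1nhaa-alone peaks were none of these cores. All words in at least 0.5% of tiles were counted, 5954 of them with both strands joined, and ranked by the share of FOXA1nhaa-alone peaks over the share of tiles. First was GCATGTA, in 5.80% (5.57 to 6.03) of FOXA1nhaa-alone peaks and 2.08% of tiles, a ratio of 2.79. It was followed by ACATGCT (2.68), AACATGC (2.66), ATGCTAC (2.65), TGCTACA (2.59), GCTATTA (2.57), GCTGTTA (2.55), CATGTTA (2.54), GCTTCTA (2.46) and GTAATAC (2.46). The palindrome CATG is in 4 of these 10 words, and ATGCTAC and TGCTACA are shifts of each other, which together read TGTAGCAT in the MYO16 array. The AP-1 core had rank 381, TGTTTAC rank 735 (ratio 1.58) and TATTTAC rank 1200 (1.41).

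Any of the 10 words was in 39.3% (38.8 to 39.7) of FOXA1nhaa-alone peaks, 37.0% (36.6 to 37.4) of shared peaks and 17.7% of every 100th tile, and 5 of the 10 highest-ranked windows held one. The words were picked from FOXA1nhaa-alone peaks, so their shares there are descriptions. In shared peaks, which the ranking did not use, the ratios to the tiles were 2.57 for GCATGTA, 2.45 for ACATGCT and 2.63 for AACATGC. These words were therefore not particular to FOXA1nhaa-alone peaks. They were less frequent in FOXA1 peaks without any variant, with ratios of 1.72, 1.51 and 1.61. Windows of that class were taken at midpoints and not at summits. More of them were under 30% GC, 31.4% against 8.46% of FOXA1nhaa-alone peaks. The part of these differences in the ratios was not tested. A few words separated the FOXA1nhaa classes more: GCTTCTA had a ratio of 2.46 in FOXA1nhaa-alone peaks and 1.43 in shared peaks, and ATGCTAC 2.65 and 1.95. The 10 words were also centred in shared peaks, at 2.19 times the flanks. In FOXA1nhaa-alone peaks the ratio was 2.51, but the words were picked from the summit windows of those peaks, which favours the centre. These ratios are therefore not compared.

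Restricting windows and tiles to 30 to 40% GC, which kept 29645 FOXA1nhaa-alone peaks and was added after the data were seen, kept ACATGCT at rank 1 (ratio 2.52), AACATGC at rank 2 (2.45) and GCATGTA at rank 5 (2.39). The words AGCTGCA (2.43) and AAGCTGC (2.41) then had ranks 3 and 4, with 1.67 and 1.76 in shared peaks. AP-1 kept a ratio of 1.78, while TGTTTAC had 1.27 and TATTTAC 1.12. FOXA1nhaa-alone peaks of this composition were thus above the genome in the AP-1 core and in both forms of the forkhead core. The reversed AP-1 letters were not counted at this composition. Over all windows the reversed letters themselves had ratios of 1.51 for AP-1 and 1.25 for the forkhead core. The ratios of the cores are therefore not compared with each other. The largest ratios of FOXA1nhaa-alone to shared peaks among 4890 words in at least 1% of these FOXA1nhaa-alone windows, named after their values were seen, were those of AGGTGAA (2.88% against 1.58%) and AAGGTGG (1.38% against 0.762%), and both were also more frequent in the tiles (3.27% and 2.21%). The smallest were those of GTGTGTA (3.55% against 6.47%) and CACACAC (3.26% against 5.81%). The AP-1 core was close to them, with 4.99% against 8.69%. Over all windows, without the limit on GC, all 10 of the least represented words in FOXA1nhaa-alone peaks, relative to the tiles, contained CG. They were rare in shared peaks too. The highest of their ratios there was 0.0267, for CGAGACC, which had 0.0270 in FOXA1nhaa-alone peaks.

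The composition of FOXA1nhaa-alone peaks, like that of shared peaks, lay mostly in a middle range. A GC content of at least 30% and under 40% was found in 70.3% (69.8 to 70.7) of them, 73.6% of shared peaks and 38.7% of tiles. Under 30% GC were 8.46% (8.20 to 8.74) of FOXA1nhaa-alone peaks, 16.1% of shared peaks, 31.4% of FOXA1 peaks without a variant and 10.7% of tiles. From 40 to under 50% GC the order was the opposite, with 20.7% (20.3 to 21.1) of FOXA1nhaa-alone peaks and 10.1% of shared peaks. At 50% GC and over, where 18.1% of tiles lay, were 0.620% (0.548 to 0.701) of FOXA1nhaa-alone peaks. The share there was 0.148% of shared peaks and 0.384% of FOXA1 peaks without a variant. FOXA1nhaa-alone peaks therefore had fewer of the very AT-rich windows than both these classes of peak. They had more windows at 50% GC and over than either class, though few against the tiles.

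Most FOXA1nhaa-alone peaks lay in introns, as did most shared peaks. Genome tiles were not sorted into these classes, so no share of the genome stands beside the values. A summit within 1000 bp of an annotated transcript start was found for 7.23% (6.99 to 7.49), in other exon sequence for 4.28% (4.09 to 4.48), in introns for 61.4% (60.96 to 61.91) and between genes for 27.0% (26.6 to 27.5). Of shared peaks, 9.45%, 6.07%, 65.8% and 18.7% were in these classes. FOXA1nhaa-alone peaks were thus more often between genes, by 8.37 points (7.84 to 8.90), and less often in each other class. They were more than 50000 bp from any start in 14.2% (13.9 to 14.5), compared with 10.1% (9.86 to 10.3) of shared peaks. Of the 2940 near a start, the nearest start belonged to a protein-coding gene for 59.6% (57.8 to 61.4) and to a long non-coding RNA for 20.3%. The forkhead share was alike in all 4 classes, from 9.89% (8.57 to 11.4) in exons to 11.3% (10.7 to 11.9) between genes.

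**Figure D4:**
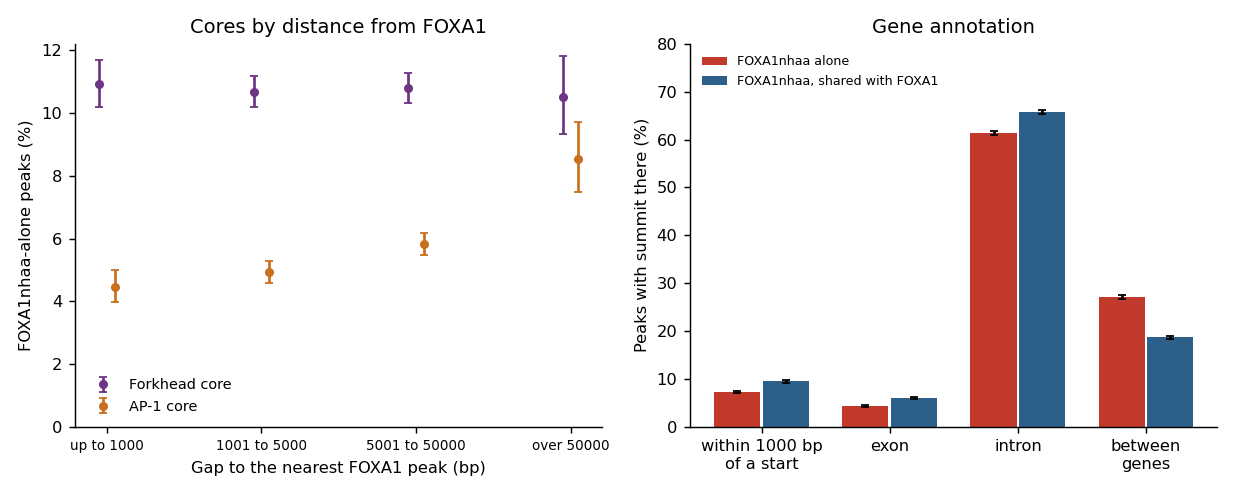
Left: share of FOXA1nhaa-alone peaks with a forkhead or an AP-1 core (y axis, %), by gap to the nearest FOXA1 peak in bp. Right: share of summits (%) in each annotation class for FOXA1nhaa-alone peaks (red) and peaks shared with FOXA1 (blue); error bars are 95% Wilson intervals. The forkhead share stays between 10.51% and 10.9% while the AP-1 share goes from 4.46% to 8.53%, and 27.0% of FOXA1nhaa-alone summits lie between genes against 18.7%.

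FOXA1nhaa-alone peaks were nearer to FOXA1 peaks than tiles of the genome were. The median gap to the nearest FOXA1 peak was 4384 bp, and 16.1% (15.7 to 16.4) were within 1000 bp, a share that the rule partly sets because it removes overlaps. Of every 100th tile of the genome, the 137312 that overlapped none of the 4 other lists had a median gap of 13647 bp, and 8.88% (8.73 to 9.04) were within 1000 bp. Only 225 FOXA1nhaa-alone peaks were within 100 bp, compared with 832 at over 400 and up to 500 bp. More than 50000 bp away were 5.83% (5.61 to 6.06) of FOXA1nhaa-alone peaks and 30.6% of these tiles. Medians to the other, shorter lists were 9690 bp for FOXA1rraa, 24935 bp for FOXA1dbd and 35867 bp for HNF4A.

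The AP-1 share was higher far from FOXA1 peaks than near them, and the intervals of the forkhead share overlapped in all classes of distance. The AP-1 core was in 4.46% (3.98 to 4.98) of FOXA1nhaa-alone peaks up to 1000 bp from a FOXA1 peak, 4.92% (4.59 to 5.28) at over 1000 and up to 5000 bp, 5.81% (5.46 to 6.18) at over 5000 and up to 50000 bp and 8.53% (7.47 to 9.72) farther away. The forkhead core was in 10.9%, 10.7%, 10.8% and 10.51% (9.34 to 11.8). The far peaks were weaker, with a median −log10 q-value of 7.103 compared with 8.36 in the nearest class, and 44.7% of them were between genes. Since AP-1 shares were also higher in weaker peaks, strength and distance move together here and their parts were not tested.

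Across the genome FOXA1nhaa-alone peaks followed the density of FOXA1 peaks. There were 14.2 per Mb of known sequence, and autosomes ranged from 4.34 on chromosome 19 to 18.3 on chromosome 6, where FOXA1 itself had 17.7 and 70.3. In 2810 windows of 1 Mb the number of FOXA1nhaa-alone peaks correlated with that of FOXA1 peaks at Pearson's r of 0.81 and Spearman's rho of 0.85, with that of HNF4A peaks at 0.07 and 0.29, and with GC content at -0.22 and -0.13. These windows share gene density, mappability and copy number, and the correlations are descriptions. The fullest window was chr13:60000001-61000000, with 48 FOXA1nhaa-alone peaks and 94 FOXA1 peaks. There were 40 windows with FOXA1 peaks and no FOXA1nhaa-alone peak.

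**Figure D5:**
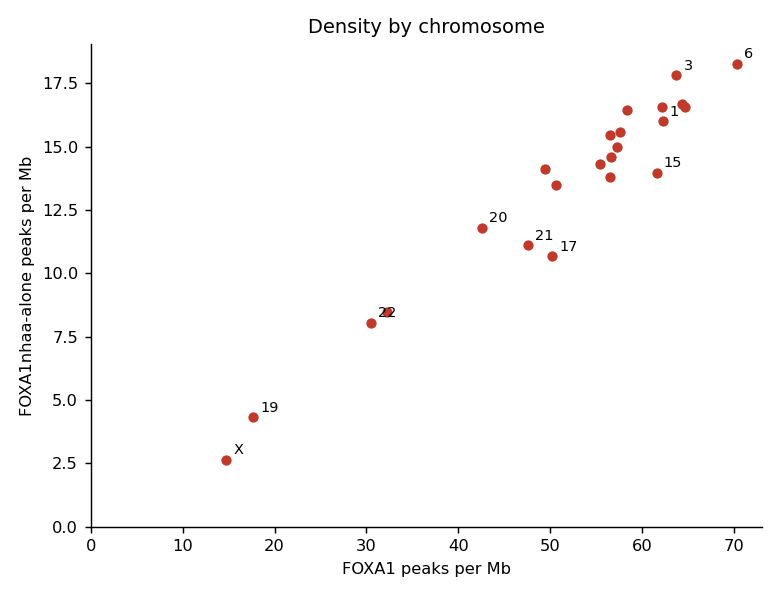
FOXA1nhaa-alone peaks per Mb of known sequence (y axis) against FOXA1 peaks per Mb (x axis), 1 point for each of chromosomes 1 to 22 and X, some of them labelled. The points lie along a rising line from the X chromosome (2.65 and 14.7) to chromosome 6 (18.3 and 70.3).

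The X chromosome had 400 FOXA1nhaa-alone peaks, or 2.65 per Mb, against an autosomal median of 14.5, as the plot of densities by chromosome shows. Of the FOXA1nhaa peaks on X, 52.2% (48.7 to 55.7) were FOXA1nhaa-alone, compared with 35.2% (33.3 to 37.2) on chromosome 17 and 44.6% (40.4 to 48.8) on chromosome 19, the lowest and highest of the autosomes. FOXA1 peaks were also sparse on X, at 14.7 per Mb against a median of 56.5.

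FOXA1nhaa-alone peaks were spread singly. They did not touch each other, the median gap between neighbours was 31766 bp, and 3.06% of gaps were up to 1000 bp. At least 1 was inside 7300 of 20163 protein-coding genes. Long genes held the most: MACROD2 and NAALADL2 had 55 each, MAGI2, a synaptic scaffold, had 54, PDE4D, a cAMP phosphodiesterase, 51, GRIK2, a kainate receptor subunit, 49, and RBMS3, an RNA-binding protein, 48. PRKG1, a cGMP-dependent kinase, had 42, as had ENSG00000283563, which overlaps RBMS3. TBC1D5, a Rab GTPase-activating protein, had 41 and DAB1, the reelin adaptor, 40. These genes were between 1119 kb (GRIK2) and 2058 kb (MACROD2) long. Their densities, from 2.58 (DAB1) to 4.38 (GRIK2) per 100 kb, were above the median of 1.79 over the 3666 protein-coding genes of at least 100 kb. The genes were picked for their counts, which favours a high density.

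Genes were also ranked per length among those of at least 100 kb, and the 10 densest were up to 222 kb long. FIGN, which encodes the microtubule-severing protein fidgetin, had 15 FOXA1nhaa-alone peaks, or 10.52 per 100 kb. SHPRH, a ubiquitin ligase, had 9.98 per 100 kb and NR3C1, the glucocorticoid receptor, 8.88 with 14 peaks. The others were OXCT1 (7.84), a ketone body enzyme, STIM2 (7.75), an endoplasmic reticulum calcium sensor, MTMR2 (7.73), a lipid phosphatase, RBMS1 (7.67), GSAP (7.58), EPSTI1 (7.56) and SLC12A2 (7.55), a sodium, potassium and chloride cotransporter. All 10 also held FOXA1 peaks at 13.5 to 25.7 per 100 kb, above the median of 7.36, so that genes dense in FOXA1nhaa-alone peaks were dense in FOXA1 peaks.

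Gene lists were described by the number of genes with a FOXA1nhaa-alone summit in the gene or within 10 kb. Over all protein-coding genes this was 45.7%, and the pooled density was 1.64 per 100 kb, with 7.31 for FOXA1 peaks. Of 24 hepatocyte genes, targets of FOXA factors in liver, 9 had one, at 1.03 per 100 kb, with 2 at AFP (alpha-fetoprotein) and 1 each at 8 others, ALB and APOB among them. Of 23 fibroblast genes 15 had one, at 2.34 per 100 kb, led by PRRX1 (a mesenchymal homeobox factor) with 6, FN1 (fibronectin) with 5, and 6 genes with 3 each, among them COL5A1 (a collagen chain), DCN and TWIST1. COL3A1, with 32 FOXA1 peaks, had none.

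All 24 neuronal adhesion and channel genes had a FOXA1nhaa-alone peak, but they are long, with a median of 1337 kb, and the pooled density of 0.798 per 100 kb was below that of all genes. The highest counts were 55 at MAGI2, 31 at LRP1B and 29 at DLG2, while CSMD1 and CNTNAP2, both longer than MAGI2, had 1. Of 20 keratinocyte genes 5 had one, at 1.17 per 100 kb, with 7 at ESRP1 (an epithelial splicing factor), 4 at TP63 and 3 at GRHL3. At ESRP1 there were fewer FOXA1 peaks, 4, than FOXA1nhaa-alone peaks. Of 14 genes of the AP-1 and TEAD pathway 4 had one, at 1.95 per 100 kb, with 11 at TEAD1, 6 at WWTR1 and 4 at YAP1, and 1 at ATF3. The members of the FOS and JUN families had none, and they are short genes. The lists differ in length and in FOXA1 density, from 1.99 per 100 kb for the neuronal to 14.3 for the fibroblast genes, and no list was tested against another.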

How the data were processed

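HALO-tag ChIP-seq was analysed from 5 peak lists, 1 for each construct, grouped by the sample titles. Per the submitters' processing notes, Bowtie2 2.3.4.1, Picard, GATK 4.2.6.0, bedtools 2.27.1, MACS2 2.2.7.1, deepTools 3.5.0 and the build hg19 were used, with no roles given, and whether replicates were pooled is not given in the sources used here. The deposited lists hold for each peak a score, a fold enrichment (a ratio to the local background), a −log10 p-value and a −log10 q-value as the authors' peak caller gave them, except that the deposited FOXA1 list has a score only. A further, down-sampled FOXA1 list was not used. The read depth is unknown.

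Rows were used as deposited. Windows of 200 bp around the FOXA1nhaa summits were read from GRCh37, and tiles of 200 bp without unknown bases served as the genome. FOXA1 peaks were taken at midpoints. Genes came from GENCODE 44 lifted to GRCh37. A repeat annotation was not used. Named sites were the 10 highest −log10 q-values, the 3 highest with a forkhead core and the 2 highest with an AP-1 core within 50 bp of the summit, and the highest within 1000 bp of a protein-coding start. One of the sites with a forkhead core is not reported here. Named genes were the 10 with the most peaks, the 10 densest of at least 100 kb and the top 3 of each list. Named words were the 10 highest ratios. Python 3.11.15 with NumPy 2.4.6, pandas 2.3.3, SciPy 1.17.1 and numba 0.67.0 was used, and overlap and motif searches were tested on simulated data. The sites, lists and settings were chosen with earlier results of these data known. Alternatives were other overlap rules, a −log10 q-value of at least 5, chromosomes 1 to 22, 1 name prefix, other windows, other start distances and protein-coding genes only. The gaps of genome tiles to FOXA1 peaks were added after the data were seen.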

Additional observations from a re-analysis of the deposited data

How the results depend on the processing

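No paired analysis was possible because there is a single peak list per construct, without replicate numbers, so leaving out a replicate was not possible either. Of 58 recomputed values 45 stayed within 1.5 times the main count or inside the main interval. Counts and shares cannot change sign, and the forkhead difference, which can, stayed negative under every alternative. The number of FOXA1nhaa-alone peaks lay between 36021 and 44240 under every other rule. The forkhead share became 5.36% in the central 100 bp, a shorter window, and 11.3% without the FOXA1rraa list in the rule, an alternative chosen after seeing the data. The forkhead difference from shared peaks became -2.84 points in the central 100 bp, -3.88 with the commonest name prefix, -3.93 without FOXA1rraa and -4.91 with centres more than 200 bp apart. The AP-1 share became 2.67% in the central 100 bp. The share near a start became 6.90% with other peaks more than 500 bp away and 16.3% within 2500 bp, and the intron share 49.8% for protein-coding genes only. The share within 1000 bp of FOXA1 became 19.7% under the 50% overlap rule, 22.5% under the centre rule and 8.77% under the 500 bp rule. Where the construction of the alternative (a shorter window, fewer genes, a wider distance) does not show it, the cause was not tested. The lists give no depth, so a missing overlap may be a site below detection in another list, and repeats were not annotated.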

Other observations

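Long runs of unknown sequence were rarely near FOXA1nhaa-alone peaks. Of these peaks 39 (0.0960%, 0.0702 to 0.131) lay within 10000 bp of a run of at least 1000 unknown bases, compared with 0.0406% (0.0275 to 0.0599) of the peaks shared with FOXA1. Coding exon sequence held the summit of 397 FOXA1nhaa-alone peaks, or 0.977% (0.886 to 1.08), and of 1.06% of shared peaks.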
